A study of Mus musculus with 8 samples.

Results

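A group of 9 genes that mark or maintain the naive, resting state of T cells were followed through RNA sequencing of sorted mouse Treg (regulatory T) cells, which hold immune responses in check. The genes were chosen by name from the deposited gene table and were Tcf7, Lef1, Il7r, Foxp1, Bcl11b, Bach2, Dapl1, Igfbp4 and Txk. All 9 were found among the 57180 genes of the table, and all 9 were among the 14755 genes that passed the filter on low counts. The study concerns copper and the suppressive capacity of Treg cells. Its labels put the 8 libraries into 2 groups, 3 labelled chimera KO and 5 labelled chimera WT. For neither group do the labels name the strain, age, host or a treatment, and for the KO group they do not name the deleted gene. A chimera carries cells of more than 1 origin, and the labels do not say of which origin the sorted cells were. Replicates are described as cells from different mice without tying each library to 1 animal, so p-values here cover the spread among libraries, whatever its source.

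Resting T cells keep their identity through a set of transcription factors. Tcf7 encodes TCF1 and Lef1 encodes LEF1, a pair of related DNA-binding proteins of the high-mobility-group type that act in T cell development and are expressed at low levels in effector cells. Foxp1 and Bach2 encode repressors that hold T cells quiescent or delay effector differentiation, and Bcl11b encodes a zinc finger factor that fixes T lineage commitment. Il7r encodes the alpha chain of the receptor for interleukin-7, the survival cytokine of naive T cells, and Txk encodes a kinase of the Tec family that acts below the T cell receptor. Dapl1, which encodes a small death-associated protein, and Igfbp4, which encodes a secreted protein that binds insulin-like growth factors, are used as transcript markers of naive T cells. In Treg cells, high TCF1 and LEF1 with high interleukin-7 receptor mark the resting, lymphoid-organ subset more than the activated, tissue-seeking subset.

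Promoter sequences, from 250 bases before to 50 bases after an annotated start, were taken from RefSeq on the mouse GRCm38.p6 build. All 9 genes had at least 1 promoter there, 16 in all. Those below belong to Tcf7, Lef1, Txk and Bach2. For Tcf7, Lef1 and Txk, every KO library lay under every WT library in normalised CPM, defined further on. Bach2 was the member with the smallest log2 difference. Sequences run 5′ to 3′ on the strand of the gene. Capitals mark the core recognised by TCF and LEF factors, CTTTGA on either strand, and a GATA motif, spelled TGATAA, on either strand. The forkhead motif GTAAACA and the RUNX motif TGTGGT were searched on both strands as well and are absent from these 4 windows. The Tcf7 promoter printed lies at chr11:52282965-52283264 on the minus strand, the Lef1 promoter at chr3:131110047-131110346 on the plus strand, the Txk promoter at chr5:72752728-72753027 on the minus strand and the Bach2 promoter at chr4:32417185-32417484 on the plus strand.
Tcf7: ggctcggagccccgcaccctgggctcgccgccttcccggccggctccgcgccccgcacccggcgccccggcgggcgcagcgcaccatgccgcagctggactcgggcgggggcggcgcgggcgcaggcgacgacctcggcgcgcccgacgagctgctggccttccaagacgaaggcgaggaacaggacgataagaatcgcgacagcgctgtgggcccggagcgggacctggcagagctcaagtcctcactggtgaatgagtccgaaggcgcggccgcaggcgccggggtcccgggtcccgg
Lef1: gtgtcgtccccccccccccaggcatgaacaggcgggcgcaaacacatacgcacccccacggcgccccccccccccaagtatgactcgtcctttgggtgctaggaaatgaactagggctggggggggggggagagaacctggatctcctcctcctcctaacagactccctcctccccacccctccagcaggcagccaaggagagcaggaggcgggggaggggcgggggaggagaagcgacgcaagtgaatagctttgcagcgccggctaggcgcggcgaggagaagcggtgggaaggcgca
Txk: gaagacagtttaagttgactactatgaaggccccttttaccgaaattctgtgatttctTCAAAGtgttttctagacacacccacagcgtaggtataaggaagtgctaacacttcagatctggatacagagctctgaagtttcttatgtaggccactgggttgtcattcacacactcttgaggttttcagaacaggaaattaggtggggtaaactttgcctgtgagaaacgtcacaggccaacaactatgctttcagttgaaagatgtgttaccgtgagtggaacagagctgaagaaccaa
Bach2: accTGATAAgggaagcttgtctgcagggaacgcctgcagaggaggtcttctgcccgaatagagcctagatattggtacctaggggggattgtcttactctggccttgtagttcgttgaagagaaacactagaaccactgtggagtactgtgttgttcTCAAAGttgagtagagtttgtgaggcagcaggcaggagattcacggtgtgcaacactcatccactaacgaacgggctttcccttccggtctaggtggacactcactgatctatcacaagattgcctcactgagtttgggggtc

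The printed Tcf7 and Lef1 windows hold none of these motifs, whereas the printed Txk window holds 1 TCF and LEF core, read as TCAAAG, and the Bach2 window holds 1 such core and 1 GATA motif. Other promoters of these genes do hold some: of the 4 Lef1 promoters, the one at chr3:131156044-131156343 holds 2 TCF and LEF cores and 1 GATA motif, the other Tcf7 promoter holds 1 forkhead motif and the other Txk promoter 1 RUNX motif. Over the 16 promoters of the 9 genes, 5 held the TCF and LEF core, against 16.003% of all 32851 mouse promoters of the same length. The RUNX motif was found in 2 of the 16 and in 16.8% of all, the forkhead motif in 2 and in 3.65% of all, and the GATA motif in 2 and in 9.05% of all. The short ETS core GGAA was found in 15 of the 16 and in 96.0% of all promoters. Tcf7 and Lef1 had GC contents of 76.3% and 67.3% in these windows and Txk and Bach2 42.7% and 50.3%, beside a median of 52.7% over all promoters. In the printed Tcf7 window an ATG before the annotated start opens a reading frame without a stop codon to the window's end. Its GC content and lack of motifs may therefore be those of coding sequence and not of a promoter. A match is a run of letters in a window, and an absent one says only that these letters are not in it.

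As deposited, values are estimates of the count of each gene. Totals ran from 4.31 to 8.48 M counts in the KO libraries and from 10.5 to 18.0 M in the WT libraries. Values below are normalised CPM, that is counts divided by the library total and by a TMM factor, which rescales each library to a common composition. The TMM factors were 1.36, 1.49 and 1.32 in KO replicates 1 to 3 and 1.15, 1.09, 1.08, 0.40 and 0.689 in WT replicates 1 to 5, so that WT replicates 4 and 5 are raised by them. WT replicate 4 had the largest total, at 18.0 M. Genes with at least 10 counts numbered 12491 to 14318 in the KO libraries and WT replicates 1 to 3, but 8250 and 9484 in WT replicates 4 and 5. Those same WT libraries stood apart in their markers of other cells. CD8 and NK cell markers summed to 5675 normalised CPM and B cell markers to 3138 in WT replicate 4, against 4.49 to 63.5 for CD8 and NK and 82.3 to 195 for B cell markers in the KO libraries. The other 4 WT libraries had 79.1 to 183 for CD8 and NK and 201 to 555 for B cell markers. As shares of counts, B cell markers held 0.0107 to 0.0263% in the KO libraries and 0.124% in WT replicate 4. In the other 4 WT libraries they held 0.0229 to 0.0591%, so for B cell markers the groups overlapped on that scale. CD8 and NK markers held 0.000657 to 0.00823% of counts in the KO libraries and 0.00900 to 0.225% in the WT libraries, without overlap. From 3 to 5 of the 9 CD8 and NK markers were detected in any library, and 4 to 8 of the 8 B cell markers. In WT replicate 5 red cell markers, chiefly haemoglobin genes, held 0.619% of all counts. The 11 pan-T cell markers, among them the CD3 chains, were detected in all 8 libraries and held 0.401, 0.228 and 0.182% of counts in KO replicates 1 to 3, against 0.546, 0.472, 0.378, 0.764 and 0.523% in WT replicates 1 to 5 (exact two-sided permutation test, p = 0.0714). The 8 Treg markers held 0.0927 to 0.365% in the KO libraries and 0.133 to 0.672% in the WT libraries, with at least 7 of the 8 detected in each. Foxp3, the transcription factor that defines Treg cells, was detected in all 8 but low, at 26.6, 2.69 and 24.2 normalised CPM in KO replicates 1 to 3, against 11.9, 36.6, 41.9, 3.09 and 1.26 in WT replicates 1 to 5. KO replicate 2 and WT replicates 4 and 5 had the lowest Foxp3. Fewer cells of a type and less RNA per cell cannot be told apart in such bulk samples.

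**Figure D1:**
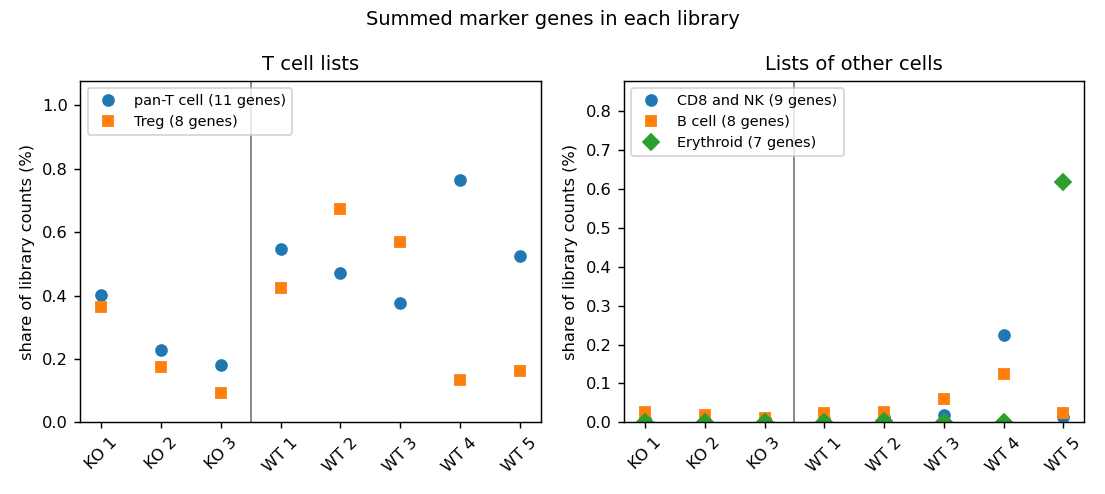
Summed counts of marker gene lists as a percentage of all counts (vertical axis) in each library (horizontal axis, KO replicates 1 to 3 left of WT replicates 1 to 5); each point is 1 library. The pan-T cell share is between 0.182 and 0.401% in the KO libraries and between 0.378 and 0.764% in the WT libraries, and the CD8 and NK and red cell lists stand out in WT replicates 4 and 5.

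The transcription factor genes Tcf7 and Lef1 had lower levels in every KO library than in any WT library, although neither passed the test across all genes. Tcf7 (ENSMUSG00000000782, chromosome 11, 52252371 to 52283014, GENCODE M21 on GRCm38) stood at 140 and 143 normalised CPM in KO replicates 1 and 2 and 37.0 in KO replicate 3, against 225, 233, 349, 537 and 582 in WT replicates 1 to 5. KO replicate 3 was the lowest, WT replicates 4 and 5 were the highest, and the groups did not overlap. The mean was 107 ± 60.3 in KO libraries and 385 ± 167 in WT libraries (SD, n = 3 and 5), with a log2 change of −1.85 (SE 0.69, 95% interval −3.40 to −0.31, adjusted p = 0.325 in the quasi-likelihood test of edgeR, adjusted over all genes). Lef1 (ENSMUSG00000027985, chromosome 3, 131110471 to 131224356) stood at 68.0, 105 and 64.8 in KO replicates 1 to 3, against 173, 289, 223, 454 and 398 in WT replicates 1 to 5. Its KO libraries lay close together and all under the lowest WT library, by a factor of 1.64 between the nearest libraries of the 2 groups. The mean was 79.4 ± 22.5 in KO libraries and 307 ± 118 in WT libraries, with a log2 change of −1.95 (SE 0.61, 95% interval −3.32 to −0.59, adjusted p = 0.325 in edgeR). Without WT replicates 4 and 5 the log2 changes were −1.31 for Tcf7 and −1.49 for Lef1, and the remaining groups still did not overlap. Exons of Lef1 share 1208 bases with an antisense gene, and the library kit does not mark strand, so the reads of that stretch cannot be assigned to 1 gene.

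**Figure D2:**
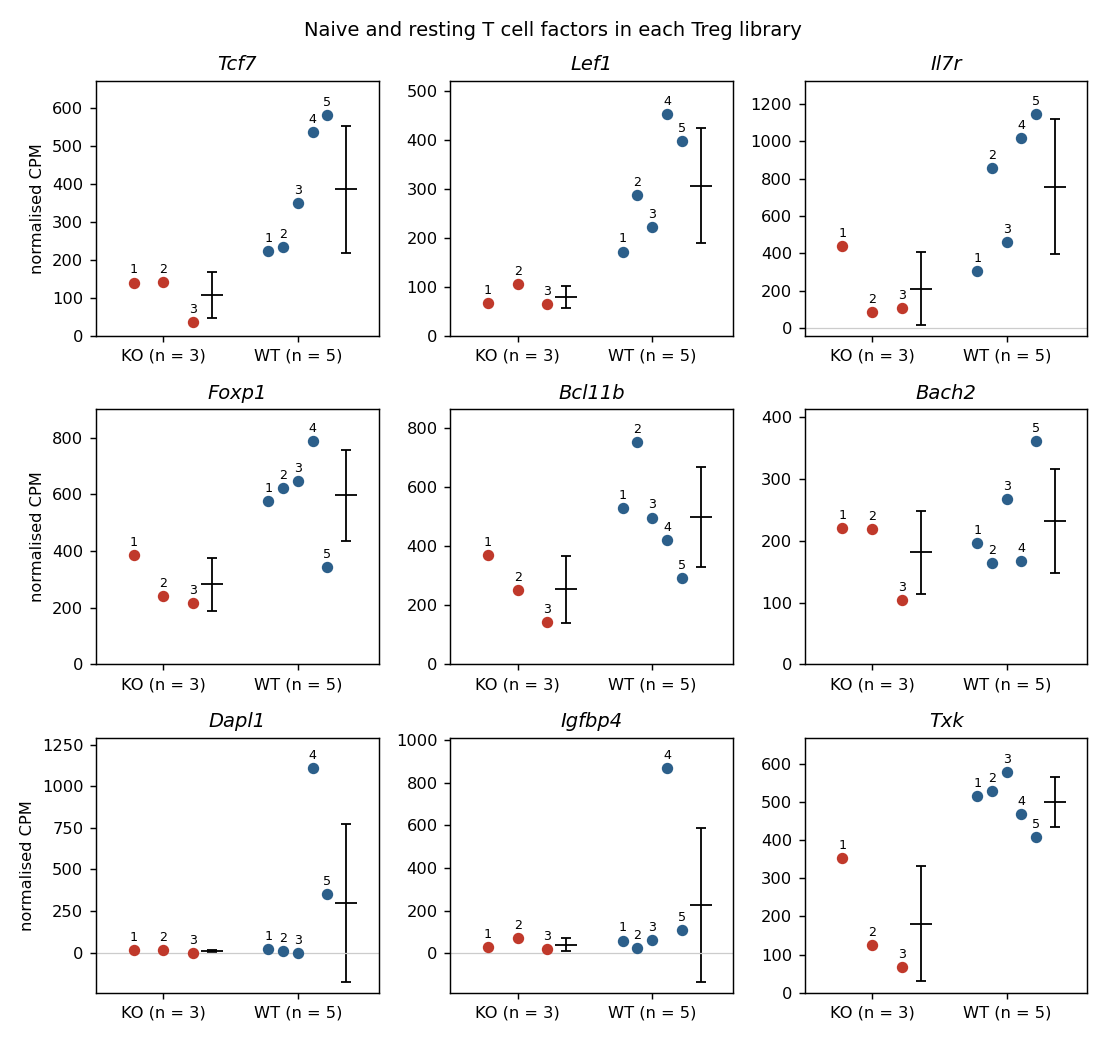
Normalised CPM (vertical axis, linear, a separate scale per panel) of each gene in each library, with KO libraries left of WT libraries; numbers are replicates, and the bar beside each group is the mean ± SD (n = 3 KO and 5 WT). Tcf7, Lef1 and Txk have no overlap between the groups, Dapl1 and Igfbp4 are highest in WT replicate 4, and Bach2 lies at like levels in both groups.

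The surface receptor and kinase genes were lower on average in KO libraries, with 1 KO library at the WT level for the receptor. Il7r (ENSMUSG00000003882, chromosome 15, 9505788 to 9530176) stood at 439, 87.5 and 108 normalised CPM in KO replicates 1 to 3, against 304, 856, 464, 1017 and 1147 in WT replicates 1 to 5. KO replicate 1 lay above WT replicate 1, so the groups overlapped, while KO replicates 2 and 3 lay under every WT library. The log2 change was −1.84 (SE 0.75, 95% interval −3.52 to −0.16, adjusted p = 0.325 in edgeR), and without KO replicate 1 it was −3.02. Txk (ENSMUSG00000054892, chromosome 5, 72695978 to 72752777) stood at 353, 124 and 66.9 in KO replicates 1 to 3, against 515, 528, 579, 468 and 407 in WT replicates 1 to 5. In normalised CPM its WT libraries were the most alike of any of the 9 genes, within a factor of 1.42. Its KO libraries spanned a factor of 5.27. The mean was 181 ± 151 in KO libraries and 499 ± 65.2 in WT libraries, the groups did not overlap, and the log2 change was −1.46 (SE 0.63, 95% interval −2.87 to −0.05, adjusted p = 0.338 in edgeR). As CPM of library totals, without TMM factors, Txk stood at 587, 571, 616, 185 and 276 in WT replicates 1 to 5. KO replicate 1 stood at 476 on that scale, so the groups overlapped there.

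The repressor genes Foxp1 and Bach2 and the lineage factor gene Bcl11b showed smaller differences. Foxp1 (ENSMUSG00000030067, chromosome 6, 98925338 to 99522721) stood at 387, 243 and 216 normalised CPM in KO replicates 1 to 3, against 578, 624, 649, 788 and 343 in WT replicates 1 to 5. WT replicate 5 alone lay inside the KO range. Bcl11b (ENSMUSG00000048251, chromosome 12, 107910403 to 108003602) stood at 370, 251 and 143 in KO replicates 1 to 3, against 530, 755, 498, 421 and 292 in WT replicates 1 to 5, and again only WT replicate 5 lay inside the KO range. Log2 changes were −1.08 (95% interval −2.21 to 0.05) for Foxp1 and −0.97 (95% interval −2.21 to 0.27) for Bcl11b, with adjusted p of 0.354 and 0.398 in edgeR. Bach2 (ENSMUSG00000040270, chromosome 4, 32238804 to 32586108) stood at 221, 219 and 104 in KO replicates 1 to 3, against 197, 165, 268, 167 and 362 in WT replicates 1 to 5. Both higher KO libraries lay above 3 of the 5 WT libraries, and the log2 change of −0.35 (SE 0.58, 95% interval −1.65 to 0.94, adjusted p = 0.745 in edgeR) leaves room for a change in either direction. Without WT replicates 4 and 5 the groups did not overlap for Foxp1, whose 3 other WT libraries averaged 617 ± 35.9, or for Bcl11b. Without WT replicates 2 and 3, whose library names carry another prefix than the rest, the log2 change of Bcl11b was −0.50, and without WT replicate 5 that of Bach2 was −0.03. Some exon bases of Foxp1 and Bach2 are shared with other annotated genes, including 537 bases of Bach2 with the antisense gene Bach2os.

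The naive T cell markers Dapl1 and Igfbp4 had the 2 largest log2 changes among the 9 genes, and both rested on WT replicates 4 and 5. Dapl1 (ENSMUSG00000026989, chromosome 2, 59484653 to 59505020) had 183, 100 and 5 counts in KO replicates 1 to 3, against 242, 149, 0, 7886 and 2546 counts in WT replicates 1 to 5; the count of 0 allows up to 3 counts. In normalised CPM it stood at 16.01, 15.0 and 0.895 in KO replicates 1 to 3, against 20.1, 12.9, 0, 1108 and 355 in WT replicates 1 to 5. The KO libraries thus lay in the range of WT replicates 1 to 3, and only WT replicates 4 and 5 were far above. The log2 change was −4.81 (SE 2.44, 95% interval −10.27 to 0.65, adjusted p = 0.371 in edgeR), and without those 2 libraries it was −0.01. Igfbp4 (ENSMUSG00000017493, chromosome 11, 99041244 to 99054392) stood at 27.6, 73.6 and 17.9 in KO replicates 1 to 3, against 59.8, 25.7, 62.8, 868 and 108 in WT replicates 1 to 5. WT replicate 4 stood far above every other library, and the log2 change was −2.50 (SE 1.29, 95% interval −5.39 to 0.39, adjusted p = 0.375 in edgeR) with it, −0.69 without it and −0.26 without WT replicates 4 and 5. In WT replicate 4 the CD8 and NK cell and B cell markers given above were also highest, and their part in the levels of Dapl1 and Igfbp4 was not tested.

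**Figure D3:**
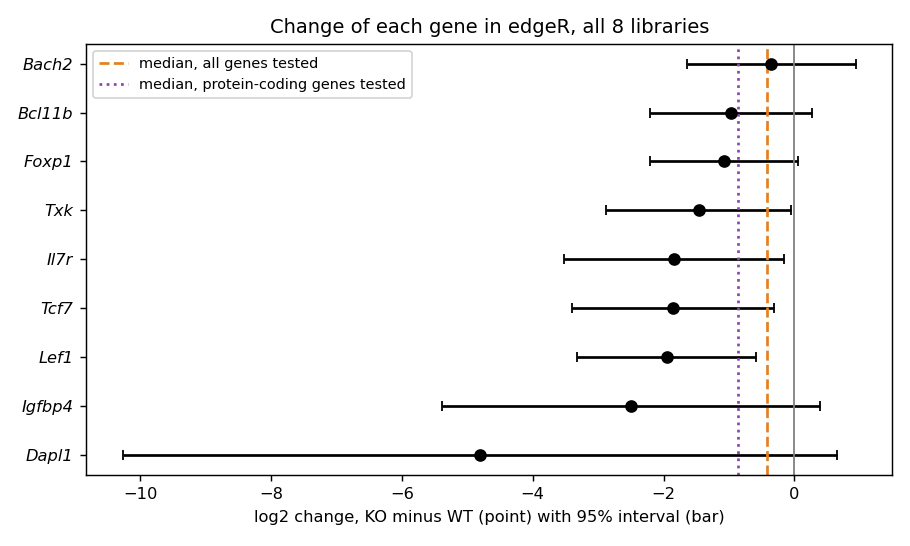
Log2 change of each gene, KO minus WT (horizontal axis), as the edgeR estimate (point) with its 95% interval (bar), genes ordered by log2 change. All 9 points lie under 0, 8 of them also under the median of all genes tested, and the intervals of Tcf7, Lef1, Il7r and Txk end under 0 before adjustment.

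Set against all genes tested, 8 of the 9 genes lay under the median log2 change and Bach2 lay just above it. None of them passed an adjusted p of 0.05 in edgeR, and neither did any other gene (0% of all genes tested). All 9 had negative log2 changes, beside 56.8% of all genes tested. Their median was −1.84, beside a median of −0.42 over all genes tested and −0.86 over the protein-coding genes among them. At an unadjusted p under 0.05 in edgeR, 4 of the 9 were lower in KO libraries (Lef1, Tcf7, Il7r and Txk), beside 6.43% of all genes. KO libraries all lay under WT libraries in normalised CPM for 3 of the 9, beside 4.49% of all genes, and for 5 of the 9 when WT replicates 4 and 5 were left out, beside 10.5%. Without KO replicate 1 the count was 6, and without WT replicate 5 alone it was 5. Leaving out a library makes it easier for the groups of any gene to lie apart. No share of all genes was worked out beside these counts of 6 and 5, so they cannot be set against all genes. The share of all genes tested with a lower log2 change was 2.15% for Dapl1, 12.7% for Igfbp4, 20.6% for Lef1, 22.3% for Tcf7, 22.5% for Il7r, 29.7% for Txk, 37.6% for Foxp1, 39.8% for Bcl11b and 51.0% for Bach2. DESeq2 called 7 of the 9 lower at an adjusted p under 0.05, beside 10% of all genes. The exceptions were Bach2 and Igfbp4, for the second of which DESeq2 gave no p. These 9 genes were picked with earlier results of these data known, so the shares describe them and test nothing.

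The difference depended on what the counts were scaled to. As CPM of library totals, without TMM factors, Tcf7 stood at 189, 209 and 48.0 in KO replicates 1 to 3, against 256, 252, 372, 213 and 396 in WT replicates 1 to 5, and the groups were still apart, though KO replicate 2 and WT replicate 4 nearly touched. Lef1 stood at 91.8, 154 and 83.9 in KO replicates 1 to 3, against 196, 312, 237, 180 and 270 in WT replicates 1 to 5 on that scale. These were the 2 of 9 genes whose groups did not overlap in CPM of library totals, beside 1.67% of all genes, and their log2 changes there were −0.997 and −1.12. Relative to the summed counts of the 11 pan-T cell markers, the difference was much smaller. Per 1000 such counts, Tcf7 had 55.0 ± 33.2 in KO libraries and 60.4 ± 27.3 in WT libraries, and Lef1 had 45.5 ± 22.3 in KO libraries and 48.0 ± 18.1 in WT libraries. On this scale 0 of the 9 genes had groups apart with KO under WT, beside 0.427% of all genes, and the log2 changes of Tcf7 and Lef1 were −0.14 and −0.08 (adjusted p = 0.951 and 0.974 in edgeR). Bach2 had 96.2 ± 38.5 in KO libraries and 42.0 ± 23.9 in WT libraries per 1000 pan-T cell marker counts, a log2 change of 1.19 (adjusted p = 0.356 in edgeR). Foxp1, Bcl11b and Igfbp4 also had positive log2 changes on it, and the median over all genes tested moved to 1.18. The median of the 9 genes was −0.08 on this scale. Of the 9, 8 lay under the median of all genes tested, as after TMM scaling. Rescaling the libraries moves the log2 changes of all genes by similar amounts, so this count had little room to change. The pan-T cell markers themselves all had negative log2 changes after TMM scaling, with a median of −1.88. On that scale 56.8% of all genes and 66.5% of protein-coding genes were negative. For 4 of the 11 markers, KO libraries lay under all WT libraries in normalised CPM, beside 4.49% of all genes. The 9 naive and resting genes together had 679.5, 809 and 539 counts per 1000 pan-T cell marker counts in KO replicates 1 to 3, against 542, 799, 872, 302 and 519 in WT replicates 1 to 5, ranges that overlap. What part the lower pan-T cell marker share has in the differences after TMM scaling was not tested.

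**Figure D4:**
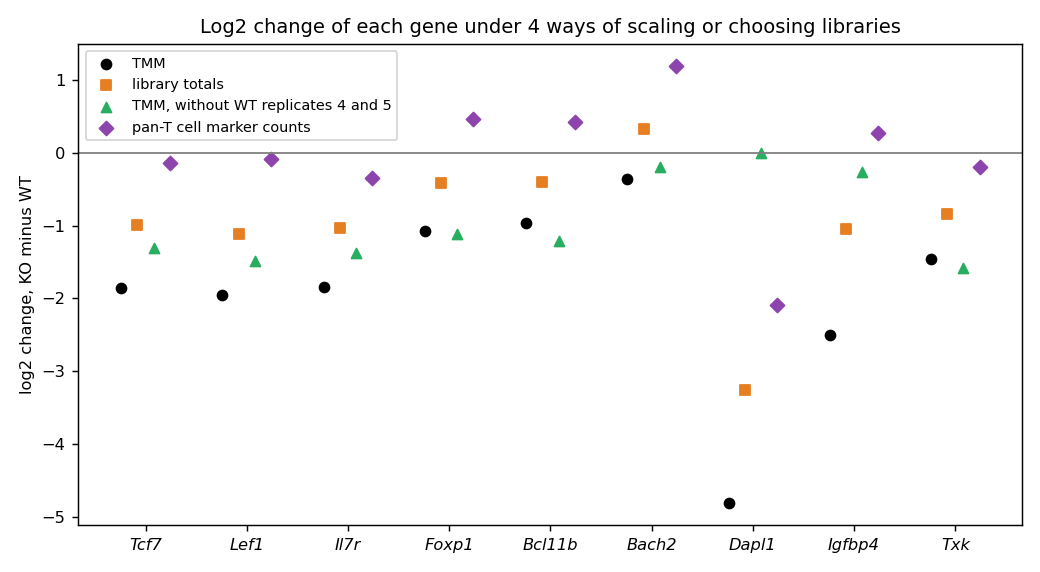
Log2 change of each gene, KO minus WT (vertical axis), from edgeR after TMM scaling with all libraries, with library totals alone, after TMM scaling without WT replicates 4 and 5, and with the summed pan-T cell marker counts as library size. Tcf7 and Lef1 are at −1.85 and −1.95 after TMM scaling and at −0.14 and −0.08 on the pan-T cell scale; Dapl1 is at −0.01 without WT replicates 4 and 5.

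Per kilobase of gene length, in TPM, the length-corrected share of transcripts computed from the deposited lengths, Foxp1 was the most abundant of the 9 genes, at 306 ± 116 TPM in KO libraries and 391 ± 210 TPM in WT libraries. It ranked first in each KO library and in WT replicates 1 to 3, while Dapl1, the shortest of the 9 at 573 bases, ranked first in WT replicates 4 and 5 at 882 and 597 TPM. Txk came next by mean, at 188 ± 163 TPM in KO libraries and 321 ± 174 TPM in WT libraries. Il7r had 139 ± 135 TPM in KO libraries and 262 ± 140 TPM in WT libraries, and Tcf7 had 121 ± 72.1 TPM in KO libraries and 222 ± 65.1 TPM in WT libraries. Tcf7 was above Lef1 in all 5 WT libraries and in 2 of 3 KO libraries, and Lef1 averaged 52.1 ± 16.7 TPM in KO libraries and 108 ± 37.7 TPM in WT libraries. Bcl11b averaged 72.8 ± 35.9 TPM in KO libraries and 94.7 ± 67.0 TPM in WT libraries. The lowest means were those of Igfbp4 in KO libraries, at 24.0 ± 18.6 TPM, and of Bach2 in WT libraries, at 37.4 ± 16.8 TPM. Bach2 averaged 49.4 ± 20.7 TPM in KO libraries, above its WT mean, whereas its log2 change after TMM scaling was negative. Of the neighbours in the order of means, Foxp1 was above Txk and Tcf7 above Bcl11b in 3 of 3 KO libraries, and Tcf7 above Lef1 in 5 of 5 WT libraries, but the ranges over libraries overlapped for every pair of neighbours in both groups. Between KO and WT libraries, 0 of the 9 genes had groups apart in TPM. For Tcf7, KO replicates 1 and 2 stood at 163 and 162 TPM, against 119 in WT replicate 4, and for Lef1 KO replicate 2 stood at 70.9 TPM, against 59.4 in WT replicate 4.

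The 9 genes did not vary as 1 block. Among the KO libraries, replicate 3 was lowest for 8 of the 9 genes and replicate 2 for Il7r. Among the WT libraries, replicate 4 or 5 was highest for 7 of the 9 in normalised CPM, while Bcl11b was highest in replicate 2 and Txk in replicate 3. As CPM of library totals, Lef1 and Il7r too were highest in WT replicate 2, and Foxp1 and Bach2 in WT replicate 3. On that scale only Tcf7, Dapl1 and Igfbp4 were highest in WT replicate 4 or 5. Likeness was measured as the root mean square difference (RMS) between log2 normalised CPM profiles over the 8 libraries, each centred on its own mean. Foxp1 and Bcl11b were the most alike pair, at 0.35 on the log2 scale, followed by Tcf7 and Lef1 and by Bcl11b and Txk, both at 0.54. Tcf7 and Lef1 were also nearest to the mean profile of the 9, at 0.47 and 0.51, and Dapl1 was the farthest, at 2.96. In WT replicate 3 Dapl1, with 0 counts, lay at −6.27 from its own mean. Igfbp4 lay at −0.06 there and every other member at 0.23 to 0.89. The mean profile, which includes Dapl1, was at −0.30 in that library, a dip that most members lack. The genes outside the 9 whose profile lay closest to that mean, out of 5688 named genes whose mean log2 CPM reached 3, were Dst at 0.15, Atp1b3 at 0.24, Ndufa13 at 0.24, Dnajc5 at 0.25 and Iqgap1 at 0.27. Dst encodes a cytoskeletal linker, Atp1b3 a subunit of the sodium pump, Ndufa13 a subunit of respiratory complex I, Dnajc5 a co-chaperone and Iqgap1 a scaffold protein. Dst stood at 30.3, 26.0 and 9.49 normalised CPM in KO replicates 1 to 3, against 51.9, 56.02, 27.7, 141 and 85.9 in WT replicates 1 to 5. These profiles share the same 8 libraries, depths and scaling factors, and likeness in them is a description of these libraries.

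**Figure D5:**
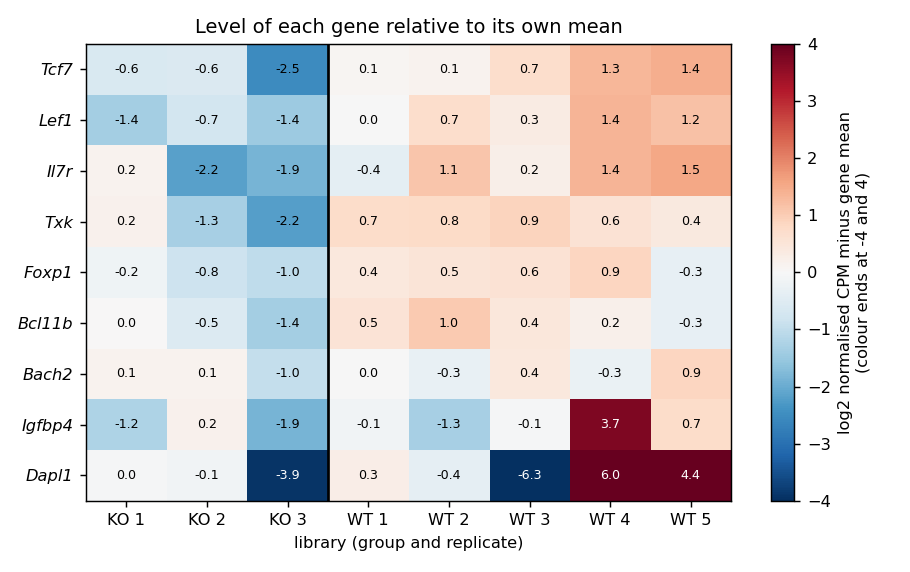
Log2 normalised CPM of each gene in each library minus the gene's own mean over the 8 libraries (colour and printed value, colour ending at −4 and 4), KO libraries left of the line and WT libraries right of it. Tcf7 is under its mean in all 3 KO libraries and above it in all 5 WT libraries, and Dapl1 and Igfbp4 peak in WT replicate 4.

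Other genes of the naive and quiescent state mostly had negative log2 changes, as did most protein-coding genes. Of 30 such genes, all tested, 27 had negative and 3 positive log2 changes, with a median of −1.19, and 0 passed an adjusted p of 0.05 in edgeR, 6 being lower and 0 higher at an unadjusted p under 0.05, beside 6.43% and 7.96% of all genes. The negative share was 90.0%, beside 56.8% of all genes and 66.5% of protein-coding genes, and 17 of the 30 lay under the median of protein-coding genes. For 5 of the 30, KO libraries all lay under WT libraries, a share of 16.7% beside 4.49% of all genes. Btg1, an antiproliferative factor, stood at 793, 744 and 733 normalised CPM in KO replicates 1 to 3, against 2264, 3004, 1635, 2231 and 1679 in WT replicates 1 to 5, with a log2 change of −1.51 (SE 0.42, adjusted p = 0.325 in edgeR). Its KO libraries were nearly equal. The most abundant of these genes, Ms4a4b and Ms4a6b, membrane proteins of T cells, averaged 909 ± 854 and 839 ± 682 in KO libraries, against 5260 ± 4947 and 3313 ± 2400 in WT libraries, with the highest value of each in WT replicate 4. Gpr183, a receptor for oxysterols that guides lymphocyte position, averaged 22.6 ± 6.05 in KO libraries and 126 ± 73.9 in WT libraries, its groups not overlapping.

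Many close relatives of the 9 genes were too low to test. Of 18 relatives in the TCF, FOXP, BCL11, BACH, DAP, IGFBP and Tec kinase families, 8 passed the count filter, 4 with negative and 4 with positive log2 changes. Dap averaged 9.45 ± 1.81 in KO libraries and 109 ± 223 in WT libraries, with 507 in WT replicate 4. Foxp2, a relative of Foxp1 best known from the brain, stood at 25.2, 45.2 and 75.0 in KO replicates 1 to 3, against 11.7, 15.9, 19.3, 2.67 and 10.0 in WT replicates 1 to 5, with a log2 change of 2.02 (SE 0.96, adjusted p = 0.358 in edgeR). Igfbp6 was low throughout, at 3.15 ± 0.70 in KO libraries and 0.44 ± 0.69 in WT libraries. For these 2 genes every KO library lay above every WT library, as for 13.2% of all genes tested. At an unadjusted p under 0.05 in edgeR, Igfbp6 was the only 1 of the 8 that was higher in KO libraries, beside 7.96% of all genes.

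Partners of TCF and LEF factors had 15 of 16 genes tested, all with negative log2 changes and a median of −1.58; 0 passed in edgeR. Beside them, 56.8% of all genes and 66.5% of protein-coding genes had negative log2 changes. At an unadjusted p under 0.05 in edgeR, 1 of the 15 was lower, a share of 6.67%, near the 6.43% of all genes. That gene was Ctnnb1, which encodes beta-catenin, the coactivator of TCF and LEF factors, at 20.0, 15.1 and 4.30 normalised CPM in KO replicates 1 to 3, against 70.2, 145, 43.8, 86.0 and 153 in WT replicates 1 to 5. Every KO library lay under every WT library, and the log2 change was −2.92 (SE 0.95, adjusted p = 0.325 in edgeR). Satb1, a chromatin organiser of T cells, averaged 454 ± 227 in KO libraries and 817 ± 306 in WT libraries. Tle5 averaged 24.1 ± 16.1 in KO libraries and 269 ± 400 in WT libraries, with 975 in WT replicate 4. The kinase gene Gsk3b averaged 98.6 ± 46.1 in KO libraries and 200.5 ± 112 in WT libraries, and Apc, of the complex that degrades beta-catenin, 40.2 ± 28.8 in KO libraries and 141 ± 83.1 in WT libraries.

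In interleukin-7 receptor signalling, 13 of 13 genes were tested, 8 with negative and 5 with positive log2 changes and a median of −0.64, and 0 passed in edgeR. The 61.5% that were negative lie near the 56.8% of all genes and the 66.5% of protein-coding genes, and the median lies above the −0.86 of protein-coding genes. At an unadjusted p under 0.05 in edgeR, 2 of the 13 were lower, beside 6.43% of all genes. Il2rg, the common gamma chain that pairs with the Il7r product, stood at 415, 62.4 and 51.7 normalised CPM in KO replicates 1 to 3, against 828, 593, 410, 3775 and 2193 in WT replicates 1 to 5. As with Il7r, KO replicate 1 reached the WT range and KO replicates 2 and 3 did not. Jak1, the kinase bound to the Il7r product, averaged 250 ± 195 in KO libraries and 1062 ± 745 in WT libraries without overlap, with a log2 change of −2.09 (SE 0.74, adjusted p = 0.325 in edgeR). The survival gene Bcl2, which interleukin-7 induces, averaged 560 ± 114 in KO libraries and 870 ± 383 in WT libraries and overlapped.

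Most genes of activated T cells had lower means in KO libraries too. Of 20 such genes, 16 were tested, 14 with negative and 2 with positive log2 changes and a median of −2.35; 0 passed in edgeR, and 4 of the 16 were lower at an unadjusted p under 0.05, beside 6.43% of all genes. The negative share was 87.5%, beside 56.8% of all genes and 66.5% of protein-coding genes. For 5 of the 16, KO libraries all lay under WT libraries in normalised CPM, a share of 31.25% beside 4.49% of all genes. In CPM of library totals this held for 4 of the 16, beside 1.67% of all genes. Rora stood at 11.9, 1.495 and 2.33 normalised CPM in KO replicates 1 to 3, against 39.2, 206, 89.3, 396 and 169 in WT replicates 1 to 5. It was the 1 gene of the 16 whose KO libraries also lay under all WT libraries per 1000 pan-T cell marker counts, beside 0.427% of all genes. Cd69, an early activation marker, averaged 119 ± 86.8 in KO libraries and 875 ± 281 in WT libraries, without overlap. Tnfrsf9, a costimulatory receptor, averaged 8.74 ± 2.29 in KO libraries and 111 ± 63.1 in WT libraries, and Id2, an inhibitor of E proteins, 52.9 ± 27.1 in KO libraries and 459 ± 341 in WT libraries, both without overlap. Tnfrsf4 averaged 115 ± 133 in KO libraries and 460 ± 351 in WT libraries, with KO replicate 1 inside the WT range.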

How the data were processed

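RNA from sorted Treg cells was made into libraries from 10 ng with a full-length, low-input kit, SMART-Seq V4, per the labels' protocols. The deposited values are expected counts, which RSEM-type estimation can leave fractional. Tools listed in the submitters' processing notes, with no version or role, include HISAT2 and RSEM, and the build is mm10. No source used here gives the authors' gene annotation. The authors' group mean columns were not used. Groups and replicate numbers came from titles.

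Counts were rounded. In R 4.3.3, edgeR 4.0.16 (filterByExpr, minimum count 10, TMM) tested KO minus WT on all 8 libraries, two-sided, with Benjamini-Hochberg adjustment over 14755 genes and a threshold of 0.05. Each SE was derived from the log2 change and its F statistic. DESeq2 1.42.0, limma-voom (limma 3.58.1), other scalings, filters and left-out libraries (also WT replicates 2 and 3 together, which share a library name prefix) were alternatives, and the procedure was checked on simulated data. Replicate numbers were not taken as pairs. No pair of libraries within a group agreed within sampling noise (chi-square per degree of freedom at least 58.3). Coordinates are from GENCODE M21, which held 51933 of the 57180 identifiers; all 168 list symbols matched. Named genes are the 9 members and, per list, the 3 most abundant and the 2 with smallest p; 1 gene so named is not reported here. The members and lists were chosen with earlier results of these data known; Tcf7, Lef1, Txk and Bach2 promoters were chosen for printing after their values were seen. Limits on counts of 0 cover counting error only. Figures were drawn with matplotlib 3.10.9.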

Additional observations from a re-analysis of the deposited data

Results flagged for a closer look

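The level of Igfbp4 in WT replicate 4 was 868 normalised CPM, against 25.7 to 108 in the other 4 WT libraries and 17.9 to 73.6 in the KO libraries. Its gap to the next WT library was 0.90 of the whole WT range, above the 95% critical value for 5 samples. It was the 1 such value among the WT groups of 9 genes, and chance flags about 1 in 20 groups.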

How the results depend on the processing

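Under 19 alternatives the log2 changes of Tcf7, Lef1, Il7r and Txk were negative in all 19, with ranges of −2.32 to −0.14, −2.41 to −0.08, −3.02 to −0.34 and −2.44 to −0.19. DESeq2 called 1476 genes lower and 945 higher and 7 of the 9 genes; limma-voom with quality weights called 4 lower and 18 higher and none of the 9. One gene was called higher, as 1 against 0, with library totals, pan-T cell marker counts (also without WT replicates 4 and 5), a mean of at least 5 CPM or no filter. Scaled to pan-T cell marker counts, 5 of the 9 genes had negative log2 changes, the median was −0.080, 0 had groups apart, and Foxp1 (0.46), Bcl11b (0.42), Bach2 (1.19) and Igfbp4 (0.28) turned positive. With WT replicates 4 and 5 also left out, an alternative added after seeing the data, the median was −0.13, 0 had groups apart, and Bach2 (0.90), Dapl1 (1.13) and Igfbp4 (0.94) were positive. With library totals the median was −0.997 and Bach2 was at 0.33. Dapl1 was at 0.20 in limma-voom. With the replicate block Dapl1 was at 0.83; the block called 0 genes, and same-numbered libraries share only a number (correlations of their deviations 0.02 to 0.05, not each the best of its library). Without WT replicates 4 and 5, 5 of the 9 genes had groups apart, beside 10.5% of all genes. Leaving out single libraries, the genes with groups apart numbered 3 to 6 (6 without KO replicate 1 and 5 without WT replicate 5). No share of all genes was worked out beside those counts. The median of the 9 ran from −2.16 to −1.46 and 0 genes were called. The causes were not tested. Median log2 changes over all genes ran from −0.72 to 1.18 across alternatives, so changes are best read against them. KO replicates 2 and 3, at 4.57 and 4.31 M, limit low genes such as Dapl1.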
